A study of Mus musculus with 9 samples.

Results

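The genes described here are 10 proteases and protease inhibitors of the extracellular matrix, chosen by symbol from the 42454 genes of the deposited table: the secreted matrix metalloproteinases Mmp2, Mmp8, Mmp9, Mmp12, Mmp13 and Mmp19, the membrane-anchored proteases Mmp14 and Adam17, and the tissue inhibitors Timp2 and Timp3. Adam17 belongs to the related ADAM family and is not itself a matrix metalloproteinase. RNA was sequenced from sorted colonic lamina propria macrophages, low in Ly6C and positive for MHC class II, of mice aged 6 weeks. The 3 genotypes were WT, p47phox-/- and gp91phox-/-, with 3 libraries each, and the labels give the mutants by these names alone. p47phox (gene Ncf1) and gp91phox (gene Cybb) are subunits of the phagocyte NADPH oxidase, which makes superoxide, and the title of the series asks how reactive oxygen species bear on intestinal macrophage development.

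Matrix metalloproteinases are zinc enzymes made as inactive precursors, and once activated they cut collagens, elastin, basement membrane proteins and many cell surface proteins. Tissue inhibitors of metalloproteinases (TIMPs) occupy the active site, and the membrane enzyme MMP14 uses bound TIMP2 to capture and activate the MMP2 precursor. ADAM17 releases tumour necrosis factor (TNF) and other membrane proteins from the cell surface and is inhibited by TIMP3. Macrophages of the gut wall are a known source of several of these proteases.

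The libraries held 31141107 to 52797368 reads on genes, and values are normalized counts, that is reads divided by a size factor for each library. The 12 macrophage markers looked up were all detected, with a summed level of 584084 to 886797 normalized counts per library. Ncf1 was 9957 ± 918 (SD, n = 3) in WT, 3195 ± 510 in p47phox-/- and 13040 ± 793 in gp91phox-/- libraries. Cybb is on chromosome X, and all 1139 chromosome X genes placed in the table were listed at 0 in every library, Cybb and the inhibitor Timp1 among them, so neither could be read. At similar depth, p47phox-/- replicates 2 and 3 had a read on 14323 and 14268 genes, against 15825 to 18760 in the other 7 libraries, and on the second principal component they marked either end. In such bulk RNA, fewer cells of a type and less RNA per cell cannot be told apart.

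Sequences before the transcription start are shown first for some of the members. AP-1 and ETS sites in such windows are known regulators of metalloproteinase genes. The choice did not follow the levels. Mmp12, not called in any comparison, is shown by its start with an AP-1 motif, and Mmp8 is left out. The sequences are from RefSeq on build GRCm38.p6, which gave 8 windows for all members but Mmp2, Mmp9 and Mmp19. Each window ran from 250 bases before to 50 after a start. Capitals mark the motifs searched: AP-1 (TGANTCA) and the ETS motif PEA3 (AGGAAG) on both strands, the TATA box (TATAAA) on the gene strand, and the GC box (GGGCGG) on both strands. Each line holds up to 100 bases before the start, 5′ to 3′, without annotated exon bases.
Mmp13, chr9:7272414-7272513, plus strand: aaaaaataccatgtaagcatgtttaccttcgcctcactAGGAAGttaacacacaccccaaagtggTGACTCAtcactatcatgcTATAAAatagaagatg
Mmp12, the second of its starts, chr9:7347274-7347373, plus strand: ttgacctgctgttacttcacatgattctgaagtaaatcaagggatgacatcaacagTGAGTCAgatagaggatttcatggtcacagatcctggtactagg
Mmp14, chr14:54431498-54431597, plus strand: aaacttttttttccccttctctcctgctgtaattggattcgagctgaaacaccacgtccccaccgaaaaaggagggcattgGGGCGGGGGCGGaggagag
Timp3, chr10:86300312-86300371, plus strand: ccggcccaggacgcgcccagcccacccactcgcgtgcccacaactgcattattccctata

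The Mmp13 window held a PEA3 motif 62, an AP-1 motif 35 and a TATA box 16 bases before the start, all within the stretch shown. The second Mmp12 window had an AP-1 motif 44 bases before the start, and the Mmp14 stretch has a pair of GC boxes. Of the stretches not shown, that of the first Mmp12 start had a PEA3 motif, that of Adam17 a GC box and that of Mmp8 no motif. Timp2 had too short a stretch outside exons to print. AP-1 was found in 2 of the 8 windows of members, that of Mmp13 and the second of Mmp12 but not the first, and in 7.81% of 32851 mouse windows of the same length. The TATA box letters were in the same 2 windows, against 8.32% of all windows. They lay 16 bases before the start for Mmp13 but 4 bases after it for Mmp12. PEA3 was in 6 of 8, against 35.4% of all windows, and the GC box in 4 of 8, against 35.7%. These matches describe the letters only.

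All members are protein-coding genes, placed here on GRCm38 by the GENCODE M21 annotation. Mmp13 (7272514 to 7283331), Mmp12 (7344381 to 7369499) and Mmp8 (7558456 to 7568485) are on the plus strand of chromosome 9. Mmp2 is on chromosome 8 (92827291 to 92853420), Mmp9 on chromosome 2 (164940780 to 164955850), Mmp14 on chromosome 14 (54431612 to 54445364) and Timp3 on chromosome 10 (86300372 to 86349506), all on the plus strand. Timp2 on chromosome 11 (118301069 to 118355740) and Adam17 on chromosome 12 (21323509 to 21373632) are on the minus strand.

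All 10 members passed the low-value filter, which asked for 10 or more normalized counts in 3 or more libraries. Divided by exon length in kilobases, the WT level was highest for Mmp14 at 4873 ± 307 normalized counts per kb (SD, n = 3), followed by Mmp19 at 4181 ± 555 and Mmp13 at 3594 ± 1037. The WT libraries of Mmp14 lay above those of Mmp19, but Mmp13 overlapped with both. These 3 genes ranked 268, 324 and 404 among 13547 genes with a known length. Timp2 followed at 2197 ± 445 per kb, Adam17 at 1291 ± 110 and Mmp2 at 859 ± 303. At the low end were Mmp9 at 432 ± 234, Mmp12 at 213 ± 77.9, Mmp8 at 72.4 ± 53.2 and Timp3 at 38.7 ± 2.83, a run in which each overlapped the next.

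The order at the top differed by genotype. In p47phox-/- libraries Timp2 came first with 3532 ± 682 normalized counts per kb, and Mmp13 (3509 ± 428), Mmp14 (3468 ± 236) and Mmp19 (3444 ± 116) followed with overlapping ranges, so no order among these 4 can be read. In gp91phox-/- libraries Mmp13 came first with 5892 ± 1011 per kb, overlapping Mmp14 at 4669 ± 375, and Mmp19 followed at 2301 ± 458. These orders are descriptions, and the tests per gene follow.

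**Figure D1:**
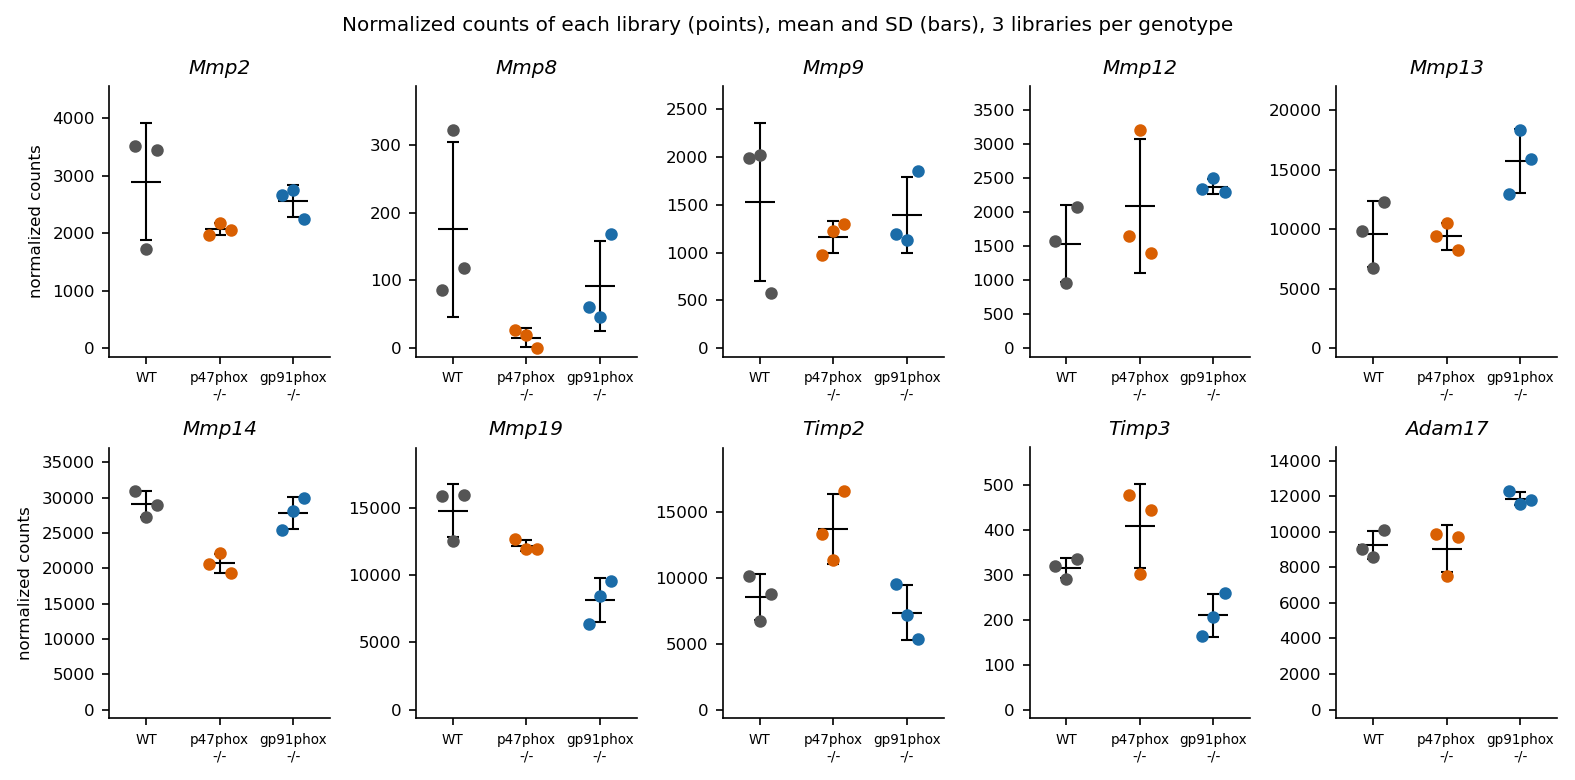
Normalized counts (y axis, from 0) of the 10 members in each library (points) by genotype, with mean and SD as bars. Mmp19 is lowest in the 3 gp91phox-/- libraries, Mmp14 lowest in the 3 p47phox-/- libraries, and Mmp13 highest in the 3 gp91phox-/- libraries.

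Mmp19 fell in gp91phox-/- macrophages. Its product is a secreted metalloproteinase that cuts basement membrane components, and the gene lies on chromosome 10 (GRCm38, 128790910 to 128800824, plus strand). WT libraries had 15850, 12509 and 15960 normalized counts, p47phox-/- libraries 12641, 11939 and 11920, and gp91phox-/- libraries 6366, 8468 and 9550. The gp91phox-/- libraries were the 3 lowest of 9 and overlapped with neither other group, while p47phox-/- replicate 1 lay within the WT range.

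Mmp19 was 1.83-fold lower in gp91phox-/- than in WT macrophages, a log2 fold change of -0.87 (SE 0.16, limma adjusted p = 0.00582). It was called in all 20 alternative analyses, with adjusted p from 1.95e-05 to 0.0446. Against p47phox-/- it was 1.52-fold lower (log2 fold change -0.60, limma adjusted p = 0.0340), but this call was lost in 11 of 20 alternatives, TMM scaling (adjusted p = 0.0609) and edgeR (0.0627) among them. It was also lost without p47phox-/- replicates 1, 2 or 3 (0.0696, 0.0540 and 0.0799) and without gp91phox-/- replicates 1 or 2 (0.114 and 0.0763). In p47phox-/- against WT the log2 fold change was -0.27 with a 95% interval of -0.62 to 0.08 (limma adjusted p = 0.444).

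Exons of Mmp19 share 789 bases with Tmem198b on the opposite strand. The strand setting of the counting is not stated, so reads from these bases cannot be told apart. Tmem198b itself stood at 755 to 778 normalized counts in gp91phox-/- libraries and 857 to 1206 in WT. The same libraries differed in markers of other cells. The summed B and plasma cell markers were 25088 to 49373 normalized counts in WT, 24481 to 30680 in p47phox-/- and 9022 to 9955 in gp91phox-/- libraries, with 9 of 11 markers lower in gp91phox-/- than in WT. Dendritic cell markers summed to 4780 to 8178 in WT and 2159 to 2725 in gp91phox-/- libraries. Of these 9 markers 4 were lower, beside 7.05% of all genes called. The part of these cells in the Mmp19 difference was not tested.

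Mmp13, which encodes a collagenase that cuts fibrillar collagen, ran the other way. WT libraries had 9815, 6735 and 12267 normalized counts, p47phox-/- libraries 9437, 10490 and 8207, and gp91phox-/- libraries 12961, 18356 and 15929. The gp91phox-/- libraries were the 3 highest, and the p47phox-/- libraries all lay within the WT range.

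Mmp13 was 1.67-fold higher in gp91phox-/- than in p47phox-/- macrophages (log2 fold change 0.74, SE 0.21, limma adjusted p = 0.0408). Against WT the difference was of the same size, 0.74 on the log2 scale with a 95% interval of 0.29 to 1.19, but it missed the threshold (limma adjusted p = 0.0507) and was called in 7 of 20 alternatives. The call against p47phox-/- held in 11 of 20. It was lost without WT replicate 1 (0.0622), p47phox-/- replicates 1 or 3 (0.0716 and 0.127) or gp91phox-/- replicates 2 or 3 (0.154 and 0.109). Between p47phox-/- and WT the log2 fold change was 0.00 with an interval of -0.45 to 0.45. The B and plasma cell and dendritic cell markers differed between the same gp91phox-/- and other libraries, and their part in the Mmp13 values was not tested.

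The ratio of Mmp19 to Mmp13 within each library, in normalized counts not divided by length, put both genes in a single number. It was 1.62, 1.86 and 1.30 in WT, 1.34, 1.14 and 1.45 in p47phox-/- and 0.491, 0.461 and 0.600 in gp91phox-/- libraries. Mmp19 thus had more reads than Mmp13 in the 6 WT and p47phox-/- libraries and fewer in the 3 gp91phox-/- libraries. This ratio was formed after the values were seen and has no test.

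Mmp12 and Mmp8 lie near Mmp13 in the metalloproteinase cluster of chromosome 9. Mmp12 encodes macrophage elastase. It had 1574, 958 and 2083 normalized counts in WT, 1654, 3214 and 1400 in p47phox-/- and 2335, 2496 and 2295 in gp91phox-/- libraries. The gp91phox-/- libraries lay close together and above all WT libraries, but p47phox-/- replicate 2 was the highest of all. Mmp12 was not called in any comparison or alternative, and its log2 fold change against WT was 0.70 in gp91phox-/- (95% interval 0.04 to 1.36, limma adjusted p = 0.205) and 0.42 in p47phox-/- (-0.25 to 1.08, limma adjusted p = 0.545).

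Mmp8 encodes the collagenase known from neutrophils and was the least abundant secreted member. WT libraries had 85.4, 323 and 118 normalized counts, p47phox-/- libraries 26.9, 19.3 and 0, and gp91phox-/- libraries 60.1, 46.5 and 168. The p47phox-/- values rest on 32, 22 and 0 reads, and 0 reads in replicate 3 allows up to 2.86 normalized counts. All 3 p47phox-/- libraries were below every library of the other groups, and their mean was 11.4-fold below that of WT. The fitted log2 fold change was -4.17 (SE 1.06, limma adjusted p = 0.0887), not called, and it moved from -5.31 to -2.85 with pseudocounts of 0.1 and 10. DESeq2 on the recovered reads did call it (adjusted p = 0.00161), as did the pseudocount of 10. Against p47phox-/-, gp91phox-/- libraries had a log2 fold change of 3.25 (95% interval 0.94 to 5.57, limma adjusted p = 0.0749).

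Neutrophil markers other than Csf3r were at or near 0, and Ltf was the highest of them in any library with 40.01 normalized counts. The markers Camp and Ngp were at 0 in every library, and S100a8 reached at most 4.97 normalized counts in WT. Ly6g was at 0 in all WT and p47phox-/- libraries and at 10.01, 7.84 and 5.37 in gp91phox-/- libraries. S100a8 at 31.3 and S100a9 at 10.7 were highest in gp91phox-/- replicate 3, the library of that group with the most Mmp8. Csf3r, Cxcr2, Ltf and Retnlg were also highest of that group there, but Cxcr1 (0.89), Mpo (0) and Ly6g were lowest. WT replicate 2, with the most Mmp8 of all libraries, had S100a8 at 2.20 and S100a9 and Ly6g at 0. Of 12 markers 10 were detected, 3 were abundant enough to test and 0 were called in limma. Their sum of 4133 to 6050 in WT, 4039 to 4895 in p47phox-/- and 5556 to 5984 in gp91phox-/- libraries was almost all Csf3r, which was 4116 to 6019 in WT libraries.

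The cluster holds 10 metalloproteinase genes in 427072 bases of chromosome 9 (GRCm38, 7272514 to 7699585), and their levels differed widely. Mmp13 had at least 6735 normalized counts in each library and Mmp12 at least 958. Mmp10 reached 56.7 at most, Mmp27 44.8, Mmp3 13.4 and Mmp7 3.32, and Mmp1a, Mmp1b and Mmp20 were at 0 in all 9 libraries. In p47phox-/- replicate 2 Mmp3, Mmp10 and Mmp27 had 0 reads, and in replicate 3 Mmp3 and Mmp8 had 0 reads. Those are the libraries with reads on the fewest genes, and each other library had reads on all 4 of these genes. The part of this low gene number in the Mmp8 values was not tested.

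**Figure D2:**
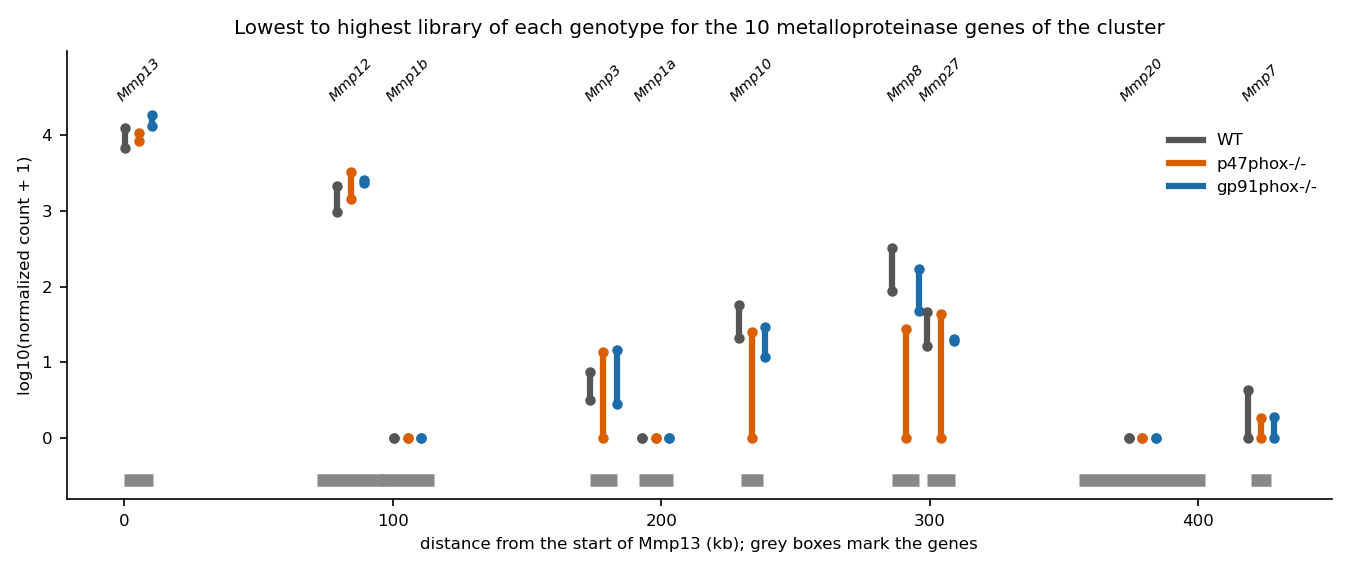
Lowest to highest library of each genotype (bars with end points) for the 10 metalloproteinase genes of the chromosome 9 cluster, as log10(normalized count + 1) against distance from the start of Mmp13 in kb, with grey boxes for the genes. Mmp13 and Mmp12 stand far above the other 8 genes, and Mmp8 is lowest in p47phox-/- libraries.

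The gelatinases MMP2 and MMP9 cut denatured collagen and basement membrane collagen. Mmp2 had 3520, 1718 and 3447 normalized counts in WT, 1971, 2180 and 2053 in p47phox-/- and 2671, 2753 and 2248 in gp91phox-/- libraries. WT replicate 2 was the lowest of all 9 and set the WT spread. Mmp2 was not called: its log2 fold change against WT was -0.41 in p47phox-/- (95% interval -0.91 to 0.09, limma adjusted p = 0.417) and -0.11 in gp91phox-/- (-0.61 to 0.39, limma adjusted p = 0.841). Without WT replicate 2 the p47phox-/- difference was called, with a log2 fold change of -0.75 (limma adjusted p = 0.0373).

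Mmp9 had 1988, 2027 and 572 normalized counts in WT, 974, 1221 and 1299 in p47phox-/- and 1197, 1133 and 1853 in gp91phox-/- libraries. WT replicate 3 was the lowest of all 9, and the other WT libraries were the highest, so both mutant groups lay inside the WT range. The 95% intervals of its log2 fold change were wide, -1.05 to 0.67 for p47phox-/- and -0.82 to 0.90 for gp91phox-/- against WT. WT replicate 2, in turn, was the lowest WT library for 8 of the 10 members and the highest for Mmp8 and Mmp9. It also had the highest B and plasma cell marker sum, 49373 normalized counts, and the lowest macrophage marker sum, 584084.

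Mmp14, the membrane-anchored collagenase that activates MMP2, was the most abundant member per kb in WT libraries, and its own level was lowest in p47phox-/- libraries. WT libraries had 30895, 27237 and 29002 normalized counts, p47phox-/- libraries 20544, 22132 and 19325, and gp91phox-/- libraries 25464, 28104 and 29905. The 3 p47phox-/- libraries were below all 6 others, and the WT and gp91phox-/- libraries overlapped.

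The difference from WT was 1.41-fold, a log2 fold change of -0.49 with a 95% interval of -0.77 to -0.21, and did not pass the threshold (limma adjusted p = 0.0928). DESeq2 alone of the 20 alternatives called it (adjusted p = 0.000909), with the other adjusted p reaching 0.458. Against p47phox-/-, gp91phox-/- libraries were higher by 0.43 on the log2 scale (95% interval 0.15 to 0.71, limma adjusted p = 0.0546), a difference called in 5 of 20 alternatives, edgeR (0.0327) and DESeq2 (0.001) among them. Between gp91phox-/- and WT the log2 fold change was -0.06 (-0.34 to 0.22).

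Adam17 had 9055, 8560 and 10098 normalized counts in WT, 9880, 7528 and 9720 in p47phox-/- and 12277, 11537 and 11765 in gp91phox-/- libraries. The gp91phox-/- libraries were the 3 highest and the closest to each other. The log2 fold change of gp91phox-/- was 0.36 against WT (95% interval 0.07 to 0.66, limma adjusted p = 0.134) and 0.40 against p47phox-/- (0.11 to 0.69, limma adjusted p = 0.0800), neither called. The latter was called with TMM scaling (adjusted p = 0.0391) and by DESeq2 (0.0223), 2 of 20 alternatives. Between p47phox-/- and WT it was -0.04 (-0.33 to 0.25). Exons of Adam17 share 311 bases with Iah1 on the opposite strand. Iah1 had 417.9 to 479.5 normalized counts in WT, 459.1 to 503.8 in p47phox-/- and 542.4 to 576.9 in gp91phox-/- libraries. Like Adam17, it was highest in the gp91phox-/- libraries. The part of reads from these shared bases in the Adam17 values was not tested.

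Both inhibitors fell in gp91phox-/- relative to p47phox-/- macrophages, with WT between them. Timp2 had 10169, 6724 and 8790 normalized counts in WT, 13325, 11343 and 16608 in p47phox-/- and 9549, 7216 and 5371 in gp91phox-/- libraries. The 3 p47phox-/- libraries were the highest of 9, and WT and gp91phox-/- overlapped. Timp3 had 319, 291 and 337 in WT, 478, 302 and 444 in p47phox-/- and 165, 207 and 260 in gp91phox-/- libraries. The gp91phox-/- libraries were the 3 lowest for Timp3, and p47phox-/- replicate 2 lay inside the WT range.

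Between the mutants Timp2 differed by 1.89-fold (log2 fold change -0.92, SE 0.22, limma adjusted p = 0.0210) and Timp3 by 1.93-fold (-0.95, SE 0.24, limma adjusted p = 0.0282). Timp2 was called in 15 of 20 alternatives and Timp3 in 13. The Timp2 call was lost without p47phox-/- replicate 3 (0.0802) and without gp91phox-/- replicates 2 or 3 (0.0621 and 0.0812). The Timp3 call was lost without p47phox-/- replicates 1 or 3 (0.0734 and 0.0800) and without gp91phox-/- replicates 1 or 2 (0.105 and 0.0866).

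Neither inhibitor was called against WT. For p47phox-/- the log2 fold change was 0.69 for Timp2 (95% interval 0.21 to 1.16, limma adjusted p = 0.161) and 0.35 for Timp3 (-0.18 to 0.87, limma adjusted p = 0.521). For gp91phox-/- it was -0.23 for Timp2 (-0.71 to 0.24, limma adjusted p = 0.601) and -0.60 for Timp3 (-1.13 to -0.08, limma adjusted p = 0.167). The fibroblast and smooth muscle markers, cells known to make TIMPs, were all detected and summed to 8153 to 11330 normalized counts in WT, 14045 to 21609 in p47phox-/- and 11588 to 13867 in gp91phox-/- libraries. Of these 15 markers 3 were higher in p47phox-/- than in WT (1.12% of all genes called) and 2 were higher in gp91phox-/- than in WT (7.05%). Between the mutants 3 were lower in gp91phox-/- than in p47phox-/- (9.93%). The part of these cells in the TIMP values was not tested. Exons of Timp3 share 1733 bases with Syn3 on the opposite strand, which had at most 15.2 normalized counts in any library.

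MMP14 and TIMP2 act together at the cell surface, and in p47phox-/- libraries Mmp14 had its lowest and Timp2 its highest values. The ratio of Mmp14 to Timp2 in normalized counts was 3.04, 4.05 and 3.30 in WT, 1.54, 1.95 and 1.16 in p47phox-/- and 2.67, 3.90 and 5.57 in gp91phox-/- libraries. All 3 p47phox-/- libraries were below all 6 others. This is a description of values chosen after they were seen.

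**Figure D3:**
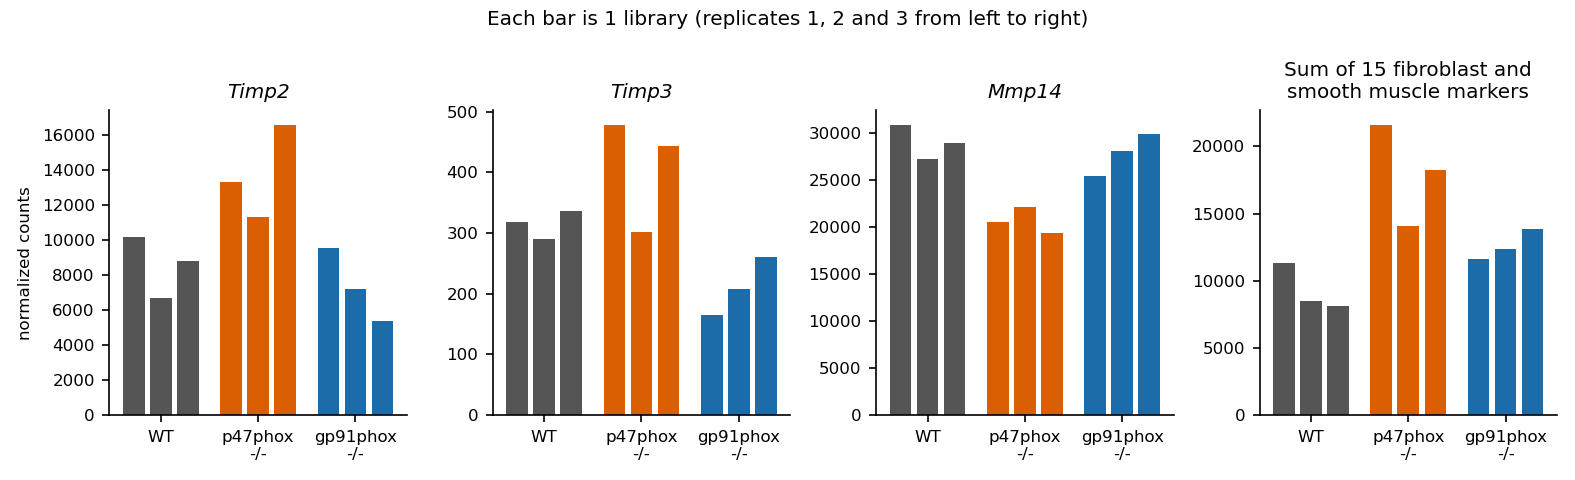
Normalized counts (y axes, from 0) of Timp2, Timp3, Mmp14 and the sum of 15 fibroblast and smooth muscle markers, with a bar for each library and replicates 1, 2 and 3 from left to right. Timp2 and the marker sum are highest in p47phox-/- libraries, where Mmp14 is lowest.

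Counted over the members, 0 of 10 were called in p47phox-/- against WT by limma, where 1.12% of 14404 genes were called. In gp91phox-/- against WT 1 of 10, Mmp19, was called, against 7.05% of all genes. In gp91phox-/- against p47phox-/- 4 of 10 were called, against 9.93%. In the same order of comparisons edgeR called 0, 1 and 4 members, against 0.923%, 6.76% and 9.13% of genes, and DESeq2 2 (Mmp8 and Mmp14 in p47phox-/- against WT), 2 and 7, against 4.71%, 12.3% and 15.8%. An unadjusted p under 0.05 was reached by 3, 5 and 7 members, against 15%, 21.7% and 26% of genes. Libraries did not overlap for 3 members (Mmp8, Mmp14 and Timp2) between p47phox-/- and WT, against 17.7% of genes, and for 5 between gp91phox-/- and WT, against 33.3%. Between the mutants 8 members did not overlap, all except Mmp9 and Mmp12, against 30.9%. The median log2 fold change of the members was -0.12, -0.09 and 0.29 in the 3 comparisons in this order, beside -0.02, 0.01 and 0.02 over all genes. The comparisons share libraries, so their counts are not independent, and the members were picked with earlier results of these data known.

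**Figure D4:**
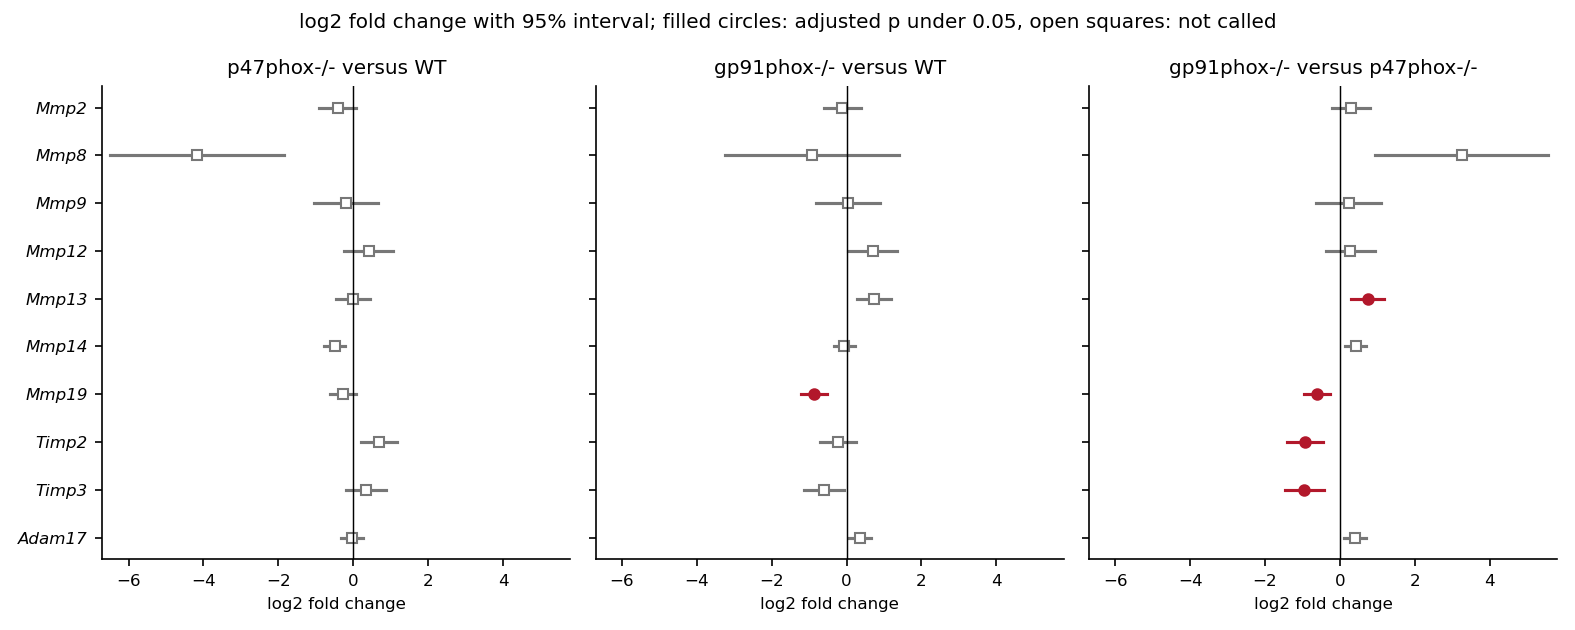
log2 fold change (x axis) of each member with its 95% interval in the 3 comparisons, where filled circles mark limma adjusted p under 0.05. Calls are Mmp19 in gp91phox-/- versus WT, and Mmp13, Mmp19, Timp2 and Timp3 in gp91phox-/- versus p47phox-/-.

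**Figure D5:**
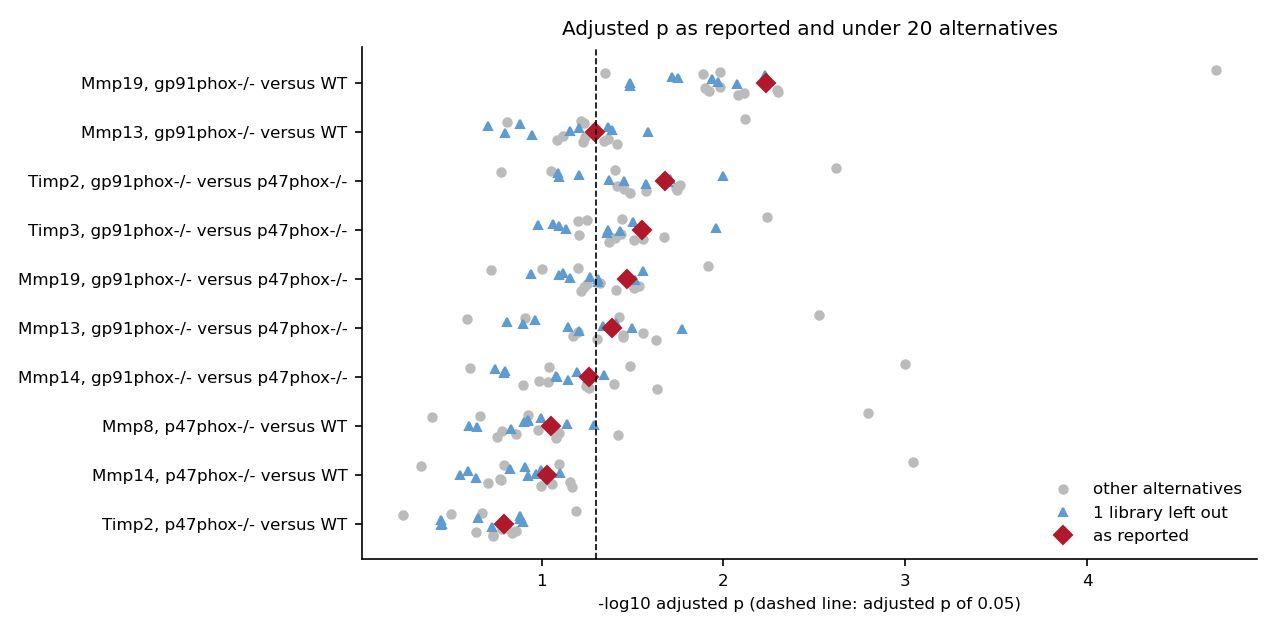
Adjusted p on a -log10 scale as reported (diamonds), with 1 library left out (triangles) and under the other alternatives (circles) for 10 member and comparison pairs; the dashed line marks 0.05. Mmp19 in gp91phox-/- versus WT lies past the line throughout, and each of the other pairs has points short of it.

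Of the other metalloproteinases and TIMPs, 18 were looked up, 5 were at 0 in every library and 9 were abundant enough to test. Among those at 0 is Timp1, which is on chromosome X and could not be read. In limma 0 of the 9 were called in p47phox-/- against WT and 1 was higher in gp91phox-/-, the membrane-anchored metalloproteinase gene Mmp25, at 564 ± 96.2 in WT and 1053 ± 241 normalized counts in gp91phox-/- libraries (log2 fold change 0.89, limma adjusted p = 0.0372). That call was lost without any 1 of the 3 WT libraries or gp91phox-/- replicates 2 or 3 (adjusted p up to 0.167). At an unadjusted p under 0.05, 1, 2 and 0 of the 9 passed in p47phox-/- against WT, gp91phox-/- against WT and gp91phox-/- against p47phox-/-, near or below the 15%, 21.7% and 26% of all genes. Of 16 tested ADAM and ADAMTS genes, Adam23, which encodes a family member without protease activity, was the single call in gp91phox-/- against WT, beside 7.05% of all genes. It fell from 675 ± 150 to 159 ± 40.5 (log2 fold change -2.08, limma adjusted p = 0.000285). In p47phox-/- libraries it was 303 ± 31.3, below all WT libraries but not called (log2 fold change -1.13, limma adjusted p = 0.0522). It was also called lower in gp91phox-/- than in p47phox-/- (log2 fold change -0.95, limma adjusted p = 0.0307).

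A list of activators of metalloproteinase precursors, with receptors, cofactors and other serine proteases, had 11 tested genes. Htra1 is on it as a serine protease, and activation of precursors by its product was not tested. In each mutant against WT 1 gene was higher (Plau), 1 lower (Htra1) and 9 not called. Over all genes 1.12% were called in p47phox-/- and 7.05% in gp91phox-/- against WT. Plau encodes urokinase, which makes plasmin. It had 11604, 6603 and 12124 normalized counts in WT, 20049, 20432 and 21719 in p47phox-/- and 23379, 26202 and 24242 in gp91phox-/- libraries. All 6 mutant libraries were above all WT libraries (log2 fold change 1.09, limma adjusted p = 0.0232, and 1.33, limma adjusted p = 0.00155). The p47phox-/- call was lost without p47phox-/- replicate 3 (adjusted p = 0.103).

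Htra1, a secreted serine protease gene, had 3608, 2277 and 3814 normalized counts in WT, 591, 1050 and 420 in p47phox-/- and 352, 475 and 514 in gp91phox-/- libraries. The WT libraries were all above the 6 mutant libraries. Htra1 fell in both, with a log2 fold change of -2.30 in p47phox-/- (limma adjusted p = 0.00480) and -2.83 in gp91phox-/- macrophages (limma adjusted p = 0.000138). Both mutants share the WT libraries. Furin, whose product cleaves the MMP14 and ADAM17 precursors, fell by 0.59 in gp91phox-/- against p47phox-/- (limma adjusted p = 0.0156). That call was lost without p47phox-/- replicate 3 or gp91phox-/- replicates 1 or 2 (adjusted p up to 0.0557).

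TIMPs aside, 10 genes of inhibitors, clearance receptors and other binding proteins were tested. Against WT 2 were lower in p47phox-/- (Thbs1 and Lcn2) and 1 was lower in gp91phox-/- (Lcn2). Lcn2 is listed for binding of its product to MMP9, not as an inhibitor. Between the mutants 2 were higher and 1 lower in gp91phox-/-. The shares of all genes called in these 3 comparisons were 1.12%, 7.05% and 9.93%. Thrombospondin 1 (Thbs1), which binds MMP2 and MMP9, had 138703, 172202 and 153434 normalized counts in WT, 49320, 36643 and 52183 in p47phox-/- and 131657, 109175 and 170015 in gp91phox-/- libraries. The p47phox-/- libraries were far below the rest. Thbs1 fell by 1.76 on the log2 scale in p47phox-/- against WT (limma adjusted p = 0.00301) and was higher by 1.56 in gp91phox-/- against p47phox-/- (limma adjusted p = 0.000733). Lcn2, whose product binds MMP9, fell in both mutants, with log2 fold changes of -4.52 and -2.56 (limma adjusted p = 0.00783 and 0.0382). Its WT value rests in part on replicate 2, with 1048 normalized counts against 240 and 175, and the gp91phox-/- call was lost without WT replicates 1 or 2 or gp91phox-/- replicates 1 or 2 (adjusted p up to 0.15).

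Of 18 tested partners and substrates of ADAM17, 4 were higher and 0 lower in p47phox-/-, and 4 higher and 1 lower in gp91phox-/-, against WT. The shares of all genes called were 1.12% and 7.05%. Tnf was 4226 ± 649 in WT, 8545 ± 982 in p47phox-/- and 10398 ± 3063 normalized counts in gp91phox-/- libraries (log2 fold change 1.02, limma adjusted p = 0.0355, and 1.27, limma adjusted p = 0.00279). The p47phox-/- call of Tnf was lost without any 1 of the WT libraries, p47phox-/- replicates 2 or 3, or gp91phox-/- replicate 2 (adjusted p up to 0.125). The adhesion molecule genes Vcam1 and Icam1 rose in gp91phox-/- against WT by log2 fold changes of 1.08 and 0.79 (limma adjusted p = 0.00142 and 0.00495). In p47phox-/- against WT they rose by 0.98 and 0.88 (limma adjusted p = 0.0135 and 0.0117), with adjusted p of up to 0.0640 and 0.0703 and no call once p47phox-/- replicate 3 or WT replicate 3 was left out.

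Of 17 matrix substrates, 3 were higher and 0 lower in p47phox-/- against WT (Eln, Col3a1 and Sparc), beside 1.12% of all genes called. The list's median log2 fold change was 0.57 beside -0.02 over all genes. Col1a1, Col1a2, Col3a1, Col6a1, Col6a2 and Sparc are also among the fibroblast and smooth muscle markers, whose own median was 0.81. Elastin (Eln), a substrate of MMP12, was 354 ± 134 in WT and 1084 ± 326 normalized counts in p47phox-/- libraries (log2 fold change 1.65, limma adjusted p = 0.0365). Its call held in 3 of the 9 fits without 1 library, and was lost without any 1 WT library, p47phox-/- replicates 1 or 3, or gp91phox-/- replicate 2 (adjusted p up to 0.138). In gp91phox-/- 1 of 17 was higher against WT (Sparc) and 2 were lower against p47phox-/- (Col6a1 and Lamc1), beside 7.05% and 9.93% of all genes called.

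Of 19 transcription factor genes, most of the AP-1, ETS and NF-kB groups, 0 were higher and 1 lower in p47phox-/- against WT. In gp91phox-/- 3 were higher and 1 lower against WT, and 3 higher and 4 lower against p47phox-/-. The shares of all genes called in these 3 comparisons were 1.12%, 7.05% and 9.93%. Binding of their products to the windows printed above was not tested, and NF-kB motifs were not searched. The AP-1 gene Fosl2 averaged 18309 in WT, 13173 in p47phox-/- and 24159 normalized counts in gp91phox-/- libraries, higher by 0.88 on the log2 scale between the mutants (limma adjusted p = 0.00255). Ets2 and Fos went the same way, by 0.82 and 0.705 (limma adjusted p = 0.00194 and 0.0209). Fosl1, also an AP-1 gene, was lower in gp91phox-/- than in p47phox-/- (log2 fold change -1.27, limma adjusted p = 0.0232). Ets1 and Nfkb1 were lower too, with log2 fold changes of -2.21 and -0.58 (limma adjusted p = 0.00212 and 0.0429). Ets1 had 3078, 6355 and 4498 in WT, 4426, 3522 and 3529 in p47phox-/- and 580, 1604 and 594 in gp91phox-/- libraries, and fell by 2.44 against WT (limma adjusted p = 0.00124). Ets1 is known from lymphocytes, and the part of B and plasma cells in its values was not tested. Of 11 tested genes of collagen uptake and cathepsins, 1, the cathepsin inhibitor gene Cst3, was higher in p47phox-/- against WT just inside the threshold, a call lost in 16 of 20 alternatives, and limma called 0 in either comparison of gp91phox-/-, where 1 and 2 had an unadjusted p under 0.05, against 21.7% and 26% of all genes. In p47phox-/- against WT 3 of these 11 had an unadjusted p under 0.05, against 15% of all genes.

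The genes whose log2 values over the 9 libraries were most like those of the most variable members are given as a description. For Mmp12 they were Rmi1 (Pearson r = 0.981), Cd9 (0.953), Mrpl42 (0.946), Mrps6 (0.922) and Milr1 (0.920), for Mmp8 Zfp503 (0.971), Zfp386 (0.959), Zbed4 (0.947), Pop1 (0.947) and Sirpb1a (0.945), and for Mmp9 Dap3 (0.891), Snap47 (0.873), Ptpa (0.867), Mrps22 (0.856) and Alg11 (0.848). They were the highest among 10670 genes, and all genes share the same libraries and size factors.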

How the data were processed

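The authors deposited normalized counts, a signal made of reads per gene over a size factor for the library. Per the submitters' processing notes, bcl2fastq 2.19, Cutadapt, STAR 2.5.2b with mm10, and DESeq2 were used, and per the labels' protocols reads were counted with featureCounts. The strand setting and annotation are not stated in those sources. Whole reads were recovered for 100% of values (tolerance 0.01), with size factors of 1.05 to 1.66. A count of 0 reads allows 3, or 1.81 to 2.86 normalized counts.

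Values were transformed to log2(normalized count + 1). The 14404 genes with at least 10 in at least 3 libraries were tested with limma 3.58.1 (R 4.3.3), in 1 fit of 3 groups with a mean-variance trend, Benjamini-Hochberg adjustment over all genes, and calls at adjusted p under 0.05. The 20 alternatives changed scaling, pseudocount, filter, samples or model, or used edgeR 4.0.16 or DESeq2 1.42.0 on recovered reads. Simulated data were used to test the scripts. Lengths and positions are from GENCODE M21 (GRCm38). Members and gene lists were chosen with earlier results of these data known. All members are described, and from each list called genes could be named, up to 6 per comparison by fold change. The labels do not say whether libraries are separate animals, so p-values reflect only how much these samples vary, which may be technical. Another 8 unnamed columns were not used. Some results are not reported here, but counts include them.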

Additional observations from a re-analysis of the deposited data

Results flagged for a closer look

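The difference between the mutants is also the difference of their effects against the shared WT libraries, and it passed the limma test for 4 members. On the log2 scale, gp91phox-/- minus p47phox-/- was 0.74 for Mmp13 (adjusted p = 0.0408), -0.60 for Mmp19 (0.0340), -0.92 for Timp2 (0.0210) and -0.95 for Timp3 (0.0282). Over the alternatives the adjusted p ran from 0.00297 to 0.257 for Mmp13, 0.0122 to 0.189 for Mmp19, 0.00241 to 0.167 for Timp2 and 0.00574 to 0.105 for Timp3. With p47phox-/- replicates 2 and 3 left out together the log2 differences were 0.72, -0.66, -0.89 and -1.20, and none of the 4 was called. That fit has 1 p47phox-/- library, assumed to vary like the other groups, so the loss of calls says little about the libraries left out.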

How the results depend on the processing

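Genes called numbered 162, 1016 and 1430 in p47phox-/- versus WT, gp91phox-/- versus WT and gp91phox-/- versus p47phox-/-. Leaving out 1 library gave 47 to 235, 520 to 1543 and 761 to 1661, no trend 52, 596 and 898, and DESeq2 678, 1771 and 2276. With only the groups compared the first count was 101, and with p47phox-/- replicates 2 and 3 left out the first was 16 and the last 441. Between the mutants 572 genes were higher and 858 lower, but 873 and 707 with TMM scaling.

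Members called numbered 0, 1 and 4. In p47phox-/- versus WT 1 was called with a pseudocount of 10, 0 to 1 with 1 library left out and 2 by DESeq2. In gp91phox-/- versus WT 2 were called with TMM scaling, a pseudocount of 10, a filter of at least 50, and DESeq2, and 1 to 2 with 1 library left out. Between the mutants 2 were called without a filter and with only the groups compared, 0 to 4 with 1 library left out, 0 with both p47phox-/- replicates out and with no trend, and 7 by DESeq2.

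Log2 fold changes that changed sign were all uncalled. In p47phox-/- versus WT these were Mmp13 with TMM scaling (-0.041), edgeR (-0.056), DESeq2 (-0.054) and 1 library left out (-0.23 to 0.20), Mmp9 with 1 library left out (-0.80 to 0.12), and Adam17 with 1 library left out (-0.11 to 0.089) or p47phox-/- replicates 2 and 3 out (0.10). In gp91phox-/- versus WT they were Mmp2 with 1 library left out (-0.45 to 0.066) and Mmp9 with 1 library left out (-0.56 to 0.35), edgeR (-0.11) and DESeq2 (-0.12). The cause of these changes was not tested.

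Same-numbered libraries of different groups showed little shared deviation (r from -0.04 to 0.08 over 9 pairs). For 2 of 9 libraries the best match in both other groups had the same number. These low values show no clear pairing by number, but cannot exclude one. With the replicate block 127, 877 and 1238 genes and 0, 1 and 3 members were called. Estimates for Mmp8 are imprecise, as p47phox-/- libraries hold 0 to 32 of its reads.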
